A study of Homo sapiens with 8 samples.

Results

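The genes of collagens, laminins and integrins were taken as the protein-coding genes whose GENCODE symbol has the form of a collagen chain (COL, a number, A and a number), a laminin chain (LAM, A to C and a number) or an integrin gene (ITG and a subunit code). This rule gave 83 of the 69215 genes listed, of which 44 were collagens, 12 were laminins and 27 were integrins. ITGBL1 fits the integrin form and is counted with it, although it encodes no integrin subunit. RNA had been sequenced in G401, a cell line established from a kidney rhabdoid tumor, in which SMARCB1, a subunit of the mSWI/SNF chromatin remodelling complexes, is missing. A Tet-On transgene that responds to doxycycline (Dox) encoded SMARCB1 in one derived line and GFP in the control line. Cells were kept for 12 h in 0.1 µg/ml Dox or in DMSO alone, and the 4 groups (GFP DMSO, GFP Dox, SMARCB1 DMSO, SMARCB1 Dox) had 2 libraries each. All 4 groups shared the loss of the cells' own SMARCB1 and the presence of a Tet-On transgene. Plates of cells were pooled for each condition, and whether a line is a single clone is not given in the sources used here.

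Collagens are trimers of alpha chains. The fibrillar types I, III, V and XI form the tension-bearing fibres of connective tissue, type IV forms the network of basement membranes, type VI forms beaded filaments, and the fibril-associated types, such as IX, XVI and XIX, sit on fibrils or at basement membrane zones. Laminins are trimers of an alpha, a beta and a gamma chain and build the other network of basement membranes, on which epithelial, muscle and endothelial cells rest. Integrins are receptors of an alpha and a beta subunit that bind these proteins outside the cell and the actin cytoskeleton inside it. In the kidney, the basement membrane of the glomerulus is built from type IV chains and laminin with LAMA5, LAMB2 and LAMC1, and ITGA3 with ITGB1 is its main receptor on podocytes.

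Counts assigned to genes summed to 29632090 to 37597477 per library, and 18.9% to 27.9% of them came from mitochondrially encoded genes (most in SMARCB1 DMSO replicate 1). SMARCB1 had 30474 and 29383 counts in SMARCB1 Dox, 10 and 21 in SMARCB1 DMSO and 0 in each GFP library, as the labels of the SMARCB1 libraries require. VIM, KRT8 and KRT18, which mark this mesenchymal and keratin-bearing tumor cell, summed to 1568 to 1921 CPM (counts brought to a common library size with TMM factors) in every library. Leukocyte markers (PTPRC, CD3E and CD14) reached at most 6 counts per gene and library, platelet markers (PF4, GP1BA and PPBP) at most 1 and endothelial markers (PECAM1, CDH5 and VWF) at most 19. The study's methods give the experiments as done in duplicate, without saying what separated the duplicates. Nothing in the labels says that the 2 libraries of a group came from separate cultures. The p-values thus measure only the spread between these samples, which may be technical. In bulk RNA, fewer cells that make a transcript and less of it per cell cannot be told apart. With 1 line of each kind, the transgene, its leak and the history of a line cannot be told apart either.

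Expression of these genes was uneven. Of the 83 genes, 46 passed edgeR's filter on low counts and were tested, 21 collagens, 9 laminins and 16 integrins. The highest count of the other 37 in a library was 17, and 6 of them (COL6A5, COL14A1, COL21A1, COL22A1, COL23A1 and ITGAD) had none in any. A mean of at least 10 CPM was reached by 25 genes and of at least 100 CPM by 11. Only 25 of the 46 tested genes were above the filter's cutoff of 0.292 CPM in all 8 libraries. In 5 tested genes (COL4A6, ITGA4, ITGA10, ITGB3 and LAMA1) no GFP library was above it and in 7 (COL9A2, COL9A3, COL11A2, COL16A1, COL19A1, ITGAM and ITGB6) no library of the SMARCB1 line was. A gene that passed through 1 line alone was bound to be higher there, so the share of called members between the lines is a description.

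Per kilobase of exon, the level on which different genes can be compared, the highest collagen was COL11A1, a chain of the type XI fibrils that form the core of thin cartilage-type fibrils. COL11A1 (GRCh38, the build of all positions here, chromosome 1, positions 102876467 to 103108872, minus strand) averaged 154 CPM per kilobase over the 8 libraries. COL3A1, the chain of type III collagen, followed at 49.1 and COL1A2, the second chain of type I collagen, at 31.4. Within a line the order below COL11A1 differed, with COL1A1 at 58.5 and COL3A1 at 59.6 CPM per kilobase in GFP DMSO, and COL5A2 at 42.97 and COL3A1 at 41.1 in SMARCB1 DMSO. Among laminins, LAMC1, the gamma chain of most laminins, averaged 50.2, LAMB2 11.2 and LAMA5 10.9 CPM per kilobase. Among integrins, ITGAV, an alpha subunit of receptors for vitronectin and latent TGF-beta, averaged 29.7, ITGB1, the beta subunit shared by most integrins, 27.8 and ITGA5, the fibronectin receptor subunit, 15.1 CPM per kilobase. The major basement membrane collagens COL4A1 and COL4A2 were not tested, with maxima of 10 and 16 counts. The filter also left out COL5A1, the usual partner of COL5A2, and COL2A1, a partner of COL11A1 in cartilage, with maxima of 10 and 4 counts.

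**Figure D1:**
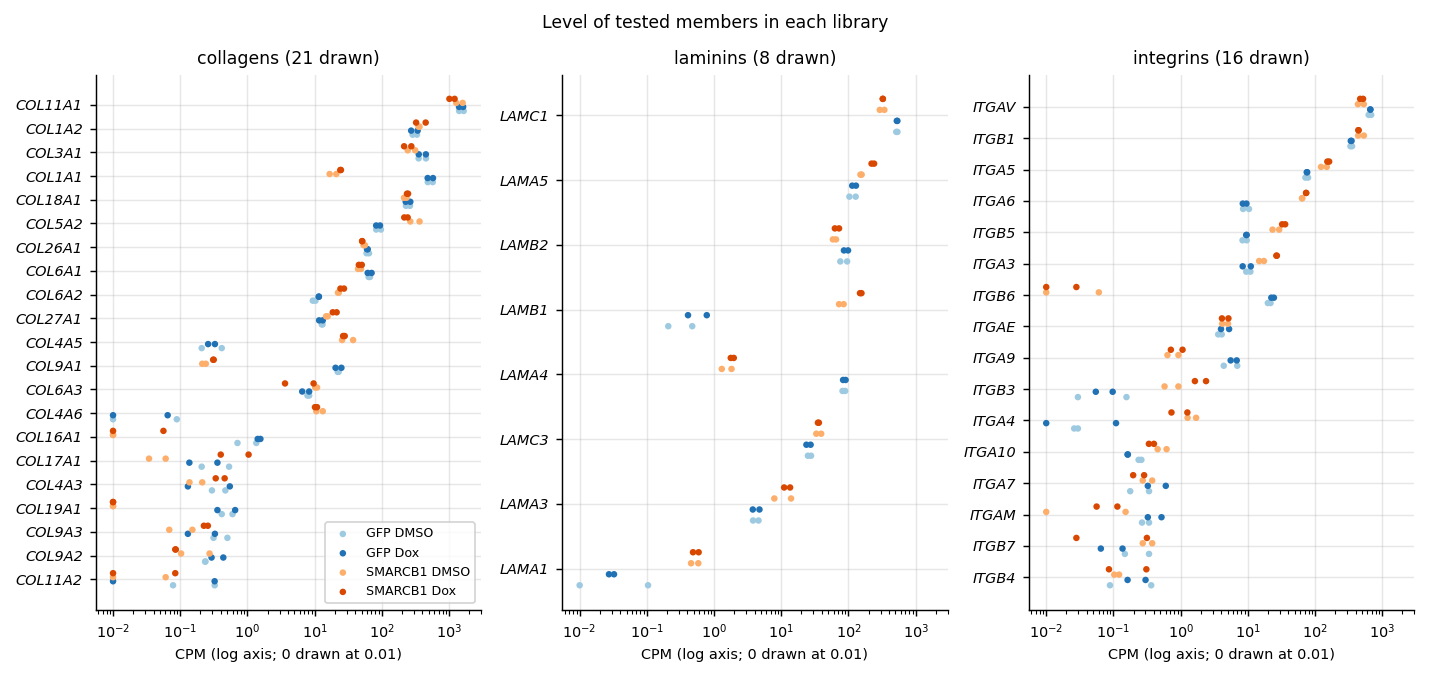
Level of 45 of the 46 tested genes in each of the 8 libraries, 1 panel per family, as CPM on a log axis with genes ordered by their mean; each point is 1 library, coloured by group, and 0 is drawn at 0.01. COL4A5, COL4A6, LAMB1, COL1A1, COL9A1, LAMA4 and ITGB6 lie over 16-fold apart between the GFP line and the SMARCB1 line, whereas Dox and DMSO of a line lie close together for most genes.

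The lines were first compared without Dox, SMARCB1 DMSO against GFP DMSO. Of the 46 tested genes, 30 were called (edgeR quasi-likelihood test, Benjamini-Hochberg adjusted p under 0.05), that is 65.2%, beside 32.0% of all 15931 genes tested. In the SMARCB1 line 16 were higher and 14 lower (background 16.3% and 15.7%), and 20 of the 30 differed by more than 2-fold (background 10.4%). Among collagens 4 were higher and 7 lower, among laminins 5 were higher and 4 lower, which was every laminin tested, and among integrins 7 were higher and 3 lower. The median log2 difference was -0.29 for collagens, 0.41 for laminins and 0.44 for integrins, beside 0.01 for all genes tested. Within each family, genes thus differed in opposite directions, from -8.15 to 8.04 in collagens, -5.76 to 7.87 in laminins and -9.18 to 5.57 in integrins (fitted log2 values). Scaling to library totals moved the median of all genes to -0.10 and the calls over all genes from 2600 higher and 2505 lower to 1732 and 3658, while the members stood at 16 higher and 17 lower.

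Type I collagen, a trimer of COL1A1 and COL1A2 chains, differed in its first chain, which was low in the SMARCB1 line, whereas the difference of its second was small. COL1A1 (chromosome 17, positions 50184101 to 50201632, minus strand) had 482 and 571 CPM in GFP DMSO, 480.4 and 576 in GFP Dox, 20.995 and 16.7 in SMARCB1 DMSO and 24.6 and 24.1 in SMARCB1 Dox. All 4 libraries of the SMARCB1 line thus lay far below all 4 of the GFP line. Without Dox COL1A1 was 27.99-fold lower in the SMARCB1 line (log2 difference -4.81 ± 0.12, SE, edgeR adjusted p 3.28e-18). COL1A2 had 287 and 333 CPM in GFP DMSO, 273 and 341 in GFP Dox, 363 and 351 in SMARCB1 DMSO and 323 and 449 in SMARCB1 Dox. Its difference of 0.20 ± 0.12 was not called (edgeR adjusted p 0.217, and 0.0396 with a block for the replicate number), and the ratio of COL1A1 to COL1A2 per kilobase was 2.02 to 2.11 in the GFP line and 0.0572 to 0.0914 in the SMARCB1 line.

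Of the other fibrillar chains, COL5A2 was higher and COL3A1 lower in the SMARCB1 line. COL5A2, a chain of the type V collagen that starts fibrils, lies on chromosome 2, positions 189031898 to 189225312, minus strand, and had 82.5 and 96.8 CPM in GFP DMSO, 82.3 and 93.9 in GFP Dox, 364 and 265 in SMARCB1 DMSO and 215 and 242 in SMARCB1 Dox. The groups of the lines did not overlap, and the difference was 3.51-fold (log2 1.81 ± 0.12, edgeR adjusted p 4.80e-11). COL3A1, its neighbour on chromosome 2, had 352 and 453 CPM in GFP DMSO, 354 and 452 in GFP Dox, 313 and 243 in SMARCB1 DMSO and 214 and 274 in SMARCB1 Dox. It was 1.45-fold lower in the SMARCB1 line without Dox (edgeR adjusted p 0.00378), but the call was lost with DESeq2 (adjusted p 0.0948) and in edgeR without 1 library (adjusted p 0.104 without GFP DMSO replicate 2 and 0.0615 without SMARCB1 DMSO replicate 2). COL11A1 had 1413 and 1651 CPM in GFP DMSO, 1408 and 1619 in GFP Dox, 1593 and 1279.8 in SMARCB1 DMSO and 1012 and 1209 in SMARCB1 Dox. The DMSO groups overlapped, and the log2 difference between them was -0.09 ± 0.11 (edgeR adjusted p 0.572). Its minor partner COL11A2 had 11 and 3 counts in GFP DMSO, 10 and 0 in GFP Dox, 0 and 2 in SMARCB1 DMSO and 3 and 0 in SMARCB1 Dox, too few to show a difference (edgeR adjusted p 0.186). COL27A1, a chain of cartilage fibrils, differed by 0.23 ± 0.12 on the log2 scale without being called (edgeR adjusted p 0.148, and 0.0127 with the block and a GC trend removed).

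The type IV chains COL4A5 and COL4A6 were near 0 in the GFP line and well expressed in the SMARCB1 line. They assemble with each other into the basement membrane network of smooth muscle and of Bowman's capsule in the kidney. Their genes lie head to head on chromosome X. COL4A5 spans positions 108439838 to 108697545 on the plus strand and COL4A6 positions 108155607 to 108439497 on the minus strand, and their RefSeq start sites lie 380 bases apart. The 250 bases before the start site of COL4A5 (RefSeq, GRCh38.p14, chrX:108439588-108439837, plus strand) are shown because the stretch at their start also lies within 250 bases upstream of COL4A6 on the other strand, so that this stretch faces both genes of the pair. Capitals mark its 8 CG pairs.
COL4A5 upstream: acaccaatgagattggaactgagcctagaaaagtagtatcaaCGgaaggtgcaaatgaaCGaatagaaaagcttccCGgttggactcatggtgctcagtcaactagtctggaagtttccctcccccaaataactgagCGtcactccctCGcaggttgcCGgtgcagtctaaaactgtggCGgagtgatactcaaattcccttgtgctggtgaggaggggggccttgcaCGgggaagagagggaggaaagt
COL4A5 had 0.415 and 0.208 CPM in GFP DMSO, 0.260 and 0.328 in GFP Dox, 37.3 and 25.6 in SMARCB1 DMSO and 26.5 and 28.01 in SMARCB1 Dox. COL4A6 had 3 and 0 counts in GFP DMSO, 2 and 0 in GFP Dox, 385 and 349 in SMARCB1 DMSO and 360 and 379 in SMARCB1 Dox, which is 10.1 to 13.2 CPM in the SMARCB1 line. Every library of the SMARCB1 line was above every library of the GFP line for both genes. COL4A5 was 102-fold higher without Dox (log2 6.67 ± 0.24, edgeR adjusted p 1.41e-15). COL4A6 rested on 734 against 3 counts over the DMSO libraries, a ratio of 284 with a 95% counting interval of 96.9 to 1381 (fitted log2 8.04, edgeR adjusted p 2.05e-13), and its fitted value moved to 11.66 without GFP DMSO replicate 1. In the SMARCB1 line the ratio of COL4A5 to COL4A6 per kilobase was 1.89 to 2.21. COL4A3, a partner of COL4A5 in the glomerulus, had 10 and 18 counts in GFP DMSO, 4 and 20 in GFP Dox, 4 and 7 in SMARCB1 DMSO and 12 and 16 in SMARCB1 Dox and was not called (edgeR adjusted p 0.236).

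Of 5 tested fibril-associated collagens, COL9A1, COL16A1 and COL19A1 were lower in the SMARCB1 line and the other 2 were not called. COL9A1, a chain of type IX collagen of cartilage (chromosome 6, positions 70216040 to 70303084, minus strand), had 22.001 and 22.7 CPM in GFP DMSO, 20.5 and 25.002 in GFP Dox, 0.240 and 0.212 in SMARCB1 DMSO and 0.309 and 0.315 in SMARCB1 Dox. It was 97.7-fold lower in the SMARCB1 line without Dox (log2 -6.61 ± 0.22, edgeR adjusted p 3.54e-16), and the lines did not overlap. Its type IX partners were low in both lines. COL9A2 had 8 and 9 counts in GFP DMSO, 9 and 16 in GFP Dox, 3 and 9 in SMARCB1 DMSO and 3 and 3 in SMARCB1 Dox and COL9A3 had 17 and 12 counts in GFP DMSO, 4 and 12 in GFP Dox, 2 and 5 in SMARCB1 DMSO and 8 and 9 in SMARCB1 Dox, and neither difference was called (edgeR adjusted p 0.786 and 0.0538). COL9A3 was called lower with library totals (-1.93, adjusted p 0.0367), with the 4 libraries alone (-1.82, 0.0477) and with a block for the replicate number (-1.84, 0.0443). COL19A1, whose gene ends 3572 bases from that of COL9A1, had 14 and 23 counts in GFP DMSO, 11 and 24 in GFP Dox, 0 and 0 in SMARCB1 DMSO and 0 and 0 in SMARCB1 Dox. With 0 against 37 counts it was at least 10.6-fold lower, against a floor of 3 counts over the group. COL16A1 had 24 and 52 counts in GFP DMSO, 48 and 52 in GFP Dox, 0 and 0 in SMARCB1 DMSO and 2 and 0 in SMARCB1 Dox, at least 21.8-fold lower by the same floor. COL17A1, a transmembrane collagen of the junction between epidermis and basement membrane, had 3 against 26 counts in the DMSO groups (edgeR adjusted p 0.0228), a call lost without 1 library (adjusted p 0.224 without GFP DMSO replicate 1, 0.118 without SMARCB1 DMSO replicate 1 and 0.0737 without SMARCB1 DMSO replicate 2).

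Of the type VI chains, COL6A2 was 2.29-fold higher (log2 1.20 ± 0.11, edgeR adjusted p 2.31e-08) and COL6A1 1.40-fold lower (-0.48 ± 0.09, edgeR adjusted p 2.42e-04) in the SMARCB1 line. COL6A2 stood at 0.153 to 0.195 of the level of COL6A1 per kilobase in the GFP line and at 0.485 to 0.564 in the SMARCB1 line. COL18A1, the precursor of endostatin, and COL26A1 stood within 1.13-fold between the DMSO groups and were not called, though 18.5% of the exon length of COL18A1 is shared with SLC19A1 on the other strand. Scaling to library totals called COL18A1 (-0.25, edgeR adjusted p 0.0359) and COL26A1 (-0.29, adjusted p 0.0155) lower.

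Laminin chains differed in both directions between the lines. LAMB1, the beta chain of most embryonic laminins, was nearly absent from the GFP line. Its gene (chromosome 7, positions 107923799 to 108003213, minus strand) has the upstream stretch shown here because it is the laminin that differed most and, unlike the ITGB6 stretch below, it is dense in CG pairs, 27 in 198 bases (RefSeq, GRCh38.p14, chr7:108003214-108003411, minus strand, ending 52 bases before the RefSeq start site, where an annotated exon begins). Capitals mark the CG pairs.
LAMB1 upstream: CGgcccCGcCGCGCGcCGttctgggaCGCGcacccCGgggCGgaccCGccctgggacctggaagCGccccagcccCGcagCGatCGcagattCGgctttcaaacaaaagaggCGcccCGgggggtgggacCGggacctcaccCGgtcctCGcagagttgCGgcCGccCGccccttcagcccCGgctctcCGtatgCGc
LAMB1 had 0.474 and 0.208 CPM in GFP DMSO, 0.779 and 0.410 in GFP Dox, 84.8 and 72.5 in SMARCB1 DMSO and 148 and 156 in SMARCB1 Dox. No library of the GFP line reached 1 CPM and every library of the SMARCB1 line exceeded 72. Without Dox the fold was 234 (log2 7.87 ± 0.19, edgeR adjusted p 1.03e-18), from 7.36 without GFP DMSO replicate 2 to 8.53 without GFP DMSO replicate 1 on the log2 scale. DLD, whose gene overlaps the span of LAMB1, differed by 0.04 on the log2 scale (edgeR adjusted p 0.784). LAMB2, the other beta chain, had 75.7 and 95.5 CPM in GFP DMSO, 85.7 and 98.6 in GFP Dox, 65.4 and 58.7 in SMARCB1 DMSO and 62.8 and 72.5 in SMARCB1 Dox. LAMB2 was 1.38-fold lower in the SMARCB1 line (log2 -0.47 ± 0.11, edgeR adjusted p 0.00162, but 0.0849 without GFP DMSO replicate 2).

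Among alpha chains, LAMA4, the chain of vessel, fat and muscle laminins, showed the opposite pattern to LAMB1. LAMA4 (chromosome 6, positions 112107931 to 112254939, minus strand) had 81.6 and 89.3 CPM in GFP DMSO, 83.2 and 90.7 in GFP Dox, 1.30 and 1.82 in SMARCB1 DMSO and 1.97 and 1.77 in SMARCB1 Dox. Its highest library in the SMARCB1 line was below 2 CPM and its lowest in the GFP line above 81. The difference was 54.1-fold (log2 -5.76 ± 0.14, edgeR adjusted p 7.69e-19). LAMA5, the widespread epithelial alpha chain, was 1.33-fold higher in the SMARCB1 line (log2 0.41 ± 0.10, edgeR adjusted p 0.00207, but 0.0927 without GFP DMSO replicate 1). LAMA3, the alpha chain of the anchoring laminin of skin, had 4.59 and 3.80 CPM in GFP DMSO, 4.74 and 3.77 in GFP Dox, 13.997 and 7.89 in SMARCB1 DMSO and 13.5 and 11.04 in SMARCB1 Dox and was 2.60-fold higher (log2 1.38 ± 0.21, edgeR adjusted p 2.35e-05). LAMA1, the alpha chain of early embryonic basement membranes, was called at 32 against 4 counts in the DMSO groups (edgeR adjusted p 0.00327, but 0.0591 without GFP DMSO replicate 1).

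The gamma chain LAMC1 had 515 and 536 CPM in GFP DMSO, 535 and 524 in GFP Dox, 342 and 293 in SMARCB1 DMSO and 324 and 325 in SMARCB1 Dox. It was 1.65-fold lower in the SMARCB1 line (log2 -0.73 ± 0.08, edgeR adjusted p 5.60e-07), with no overlap between the lines. LAMC3, a gamma chain of brain and nerve, was 1.38-fold higher in the SMARCB1 line (log2 0.46 ± 0.10, edgeR adjusted p 0.00156). LAMB3, a beta chain that pairs with LAMA3 in skin, was not tested, with a maximum of 12 counts.

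Of the 10 integrins called, the widest fitted differences were those of ITGB6, lower in the SMARCB1 line, and ITGA4, higher there. ITGB6, which with ITGAV forms the epithelial receptor that activates TGF-beta, was near 0 in the SMARCB1 line. The stretch upstream of its start site (RefSeq, GRCh38.p14, chr2:160200314-160200522, minus strand, ending 41 bases before that site) is shown as the member with the largest fitted difference, for comparison with LAMB1, and holds 0 CG pairs in 209 bases, so it has no capitals.
ITGB6 upstream: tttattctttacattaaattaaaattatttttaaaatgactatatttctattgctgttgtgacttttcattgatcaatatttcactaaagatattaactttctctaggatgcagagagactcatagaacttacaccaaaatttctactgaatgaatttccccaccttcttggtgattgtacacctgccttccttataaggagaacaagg
ITGB6 (chromosome 2, positions 160099667 to 160200313, minus strand) had 19.8 and 21.8 CPM in GFP DMSO, 24.4 and 22.4 in GFP Dox, 0 and 0.0607 in SMARCB1 DMSO and 0.0281 and 0 in SMARCB1 Dox. The DMSO groups held 1506 counts in the GFP line and 2 in the SMARCB1 line, 648-fold fewer with a 95% counting interval of 179 to 5358 (fitted log2 -9.18, edgeR adjusted p 6.09e-16), and the fitted value ranged from -12.48 without SMARCB1 DMSO replicate 2 to -8.34 without SMARCB1 DMSO replicate 1. A long noncoding RNA on the same strand shares 16.7% of its exon length. The deposited counts do not resolve the 2 genes there.

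ITGB5, which forms a vitronectin receptor with ITGAV, had 9.62 and 8.34 CPM in GFP DMSO, 9.61 and 9.45 in GFP Dox, 29.3 and 23.3 in SMARCB1 DMSO and 35.9 and 32.4 in SMARCB1 Dox. It was 2.93-fold higher in the SMARCB1 line (log2 1.55 ± 0.13, edgeR adjusted p 1.56e-09). ITGB3, the other vitronectin receptor partner and the platelet beta subunit, had 1 and 6 counts in GFP DMSO, 3 and 2 in GFP Dox, 27 and 19 in SMARCB1 DMSO and 85 and 57 in SMARCB1 Dox. Its 46 against 7 counts in the DMSO groups gave a ratio of 7.63 with a 95% counting interval of 3.42 to 20.0 (edgeR adjusted p 8.94e-04), and the fitted log2 difference of 2.90 ranged from 2.23 without GFP DMSO replicate 1 to 4.48 without GFP DMSO replicate 2. An overlapping gene on the same strand shares 33.2% of the exon length of ITGB3, so its counts are uncertain. ITGAV itself had 628 and 685 CPM in GFP DMSO, 666 and 665 in GFP Dox, 532 and 435 in SMARCB1 DMSO and 469 and 519 in SMARCB1 Dox. It was 1.36-fold lower in the SMARCB1 line (log2 -0.44 ± 0.09, edgeR adjusted p 8.40e-04). The alpha subunit thus stayed abundant in both lines while its partners ITGB3, ITGB5 and ITGB6 differed.

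The laminin receptor subunit ITGA6 (chromosome 2, positions 172427354 to 172506459, plus strand) had 8.50 and 10.4 CPM in GFP DMSO, 8.41 and 9.54 in GFP Dox, 64.5 and 63.97 in SMARCB1 DMSO and 73.7 and 73.7 in SMARCB1 Dox. The lines did not overlap and the difference was 6.78-fold (log2 2.76 ± 0.10, edgeR adjusted p 2.35e-15). ITGB4, its partner in hemidesmosomes, was low throughout, with 3 and 14 counts in GFP DMSO, 5 and 11 in GFP Dox, 3 and 4 in SMARCB1 DMSO and 11 and 3 in SMARCB1 Dox. ITGB1, the partner ITGA6 shares with ITGA3 and ITGA5, had 336 and 356 CPM in GFP DMSO, 349 and 341 in GFP Dox, 533 and 438 in SMARCB1 DMSO and 446 and 440.3 in SMARCB1 Dox. ITGB1 was 1.40-fold higher in the SMARCB1 line (log2 0.49 ± 0.09, edgeR adjusted p 1.71e-04). ITGA5 had 78.7 and 71.9 CPM in GFP DMSO, 75.3 and 76.5 in GFP Dox, 149 and 123 in SMARCB1 DMSO and 162 and 152 in SMARCB1 Dox. It was 1.81-fold higher (log2 0.85 ± 0.09, edgeR adjusted p 1.55e-07) and ITGA3 1.57-fold higher (log2 0.65 ± 0.14, edgeR adjusted p 6.90e-04). ITGA9, a subunit that pairs with ITGB1 and binds tenascin, had 4.38 and 6.96 CPM in GFP DMSO, 5.55 and 6.83 in GFP Dox, 0.926 and 0.637 in SMARCB1 DMSO and 1.07 and 0.715 in SMARCB1 Dox and was 7.32-fold lower (log2 -2.87 ± 0.28, edgeR adjusted p 4.23e-08). ITGA4, the related subunit of receptors for VCAM1 and fibronectin, held 93 against 2 counts in the DMSO groups, a ratio of 54.0 with a 95% counting interval of 14.5 to 453 (edgeR adjusted p 3.35e-06), while 26.4% of its exon length is shared with CERKL on the other strand, which had 0 counts in these groups.

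Leukocyte integrins gave little signal, as did the leukocyte markers. ITGAX, ITGAL and ITGB2 reached at most 1, 4 and 9 counts and were not tested. ITGAE, which pairs with ITGB7 on lymphocytes, was the exception at 3.62 to 5.26 CPM. Its difference between the DMSO groups was not called (log2 0.26 ± 0.19, edgeR adjusted p 0.334). HASPIN on the other strand shares 6.47% of the exon length of ITGAE, and ZNF740 on the other strand shares 42.3% of that of ITGB7. ITGAM had 9 and 13 counts in GFP DMSO, 10 and 19 in GFP Dox, 0 and 5 in SMARCB1 DMSO and 2 and 4 in SMARCB1 Dox (edgeR adjusted p 0.0955, and 0.0229 without SMARCB1 DMSO replicate 2). Of the collagen receptor subunits ITGA1, ITGA2, ITGA10 and ITGA11, only ITGA10 was tested, with 8 and 10 counts in GFP DMSO, 5 and 6 in GFP Dox, 18 and 15 in SMARCB1 DMSO and 12 and 14 in SMARCB1 Dox and no call (edgeR adjusted p 0.131). ITGA7, a laminin receptor subunit of muscle, and ITGB7 stayed below 1 CPM and were not called (edgeR adjusted p 0.752 and 0.734).

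Neighbours were examined for the members with the widest differences, as the 3 nearest protein-coding genes on each side and any that overlap. Each of the 6 low members among them (COL1A1, COL9A1, COL16A1, COL19A1, ITGB6 and LAMA4) had at least 1 neighbour, other than a member, that was called lower in the SMARCB1 line. The share of all genes called lower, 15.7%, is per gene, so it is no measure for at least 1 of several neighbours. COL9A1 and COL19A1 shared neighbours. Some neighbours lay far off, such as MARCKS at 1602406 bases from LAMA4 and PSMD14 at 1108112 bases from ITGB6. Beside COL19A1 and COL9A1 on chromosome 6, ADGRB3 had 0 CPM in SMARCB1 DMSO and a mean of 2.72 in GFP DMSO (fitted log2 -9.53, edgeR adjusted p 1.19e-08). FAM135A stood at -0.74 (edgeR adjusted p 2.40e-07) and LMBRD1, which overlaps COL19A1, was higher (0.53, adjusted p 8.48e-04). SDHAF4 (-0.37) and, beside COL9A1, SMAP1 (-0.21) were not called. Beside LAMA4, RFPL4B (-10.75, edgeR adjusted p 3.31e-20), MARCKS (-4.91, 1.98e-05), FAM229B (-1.39, 0.00588) and TUBE1 (-0.34, 0.0196) were lower, and HDAC2 (-0.13) was not called. Beside COL16A1, SPOCD1 (-5.70, edgeR adjusted p 2.86e-14), TINAGL1 (-1.40, 1.63e-07) and ADGRB2 (-1.11, 5.81e-08) were lower, and the nearest gene PEF1 (-0.08), HCRTR1 (-0.70) and PTP4A2 (-0.13) were not called. Beside COL1A1, SGCA (-3.58, edgeR adjusted p 2.67e-07), SAMD14 (-2.71, 4.85e-04) and TMEM92 (-1.11, 0.00403) were lower, XYLT2 was higher (0.52, 0.00156), and PPP1R9B (0.17) and MRPL27 (0.16) were not called. Beside ITGB6, RBMS1 (-5.61, edgeR adjusted p 3.64e-19) and PSMD14 (-0.30, 0.00667) were lower and TANK (-0.03) was not called. Of the high members, ITGA4 had ITPRID2 called higher (1.80, edgeR adjusted p 0.0041) and UBE2E3 (0.07) and CWC22 (-0.04) not called, and none of the tested neighbours of COL4A5 and COL4A6 (ATG4A, PSMD10 and NXT2, -0.17 to 0.23) or of LAMB1 (CBLL1, PNPLA8 and DLD, -0.24 to 0.04) was called, apart from the pair itself.

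**Figure D2:**
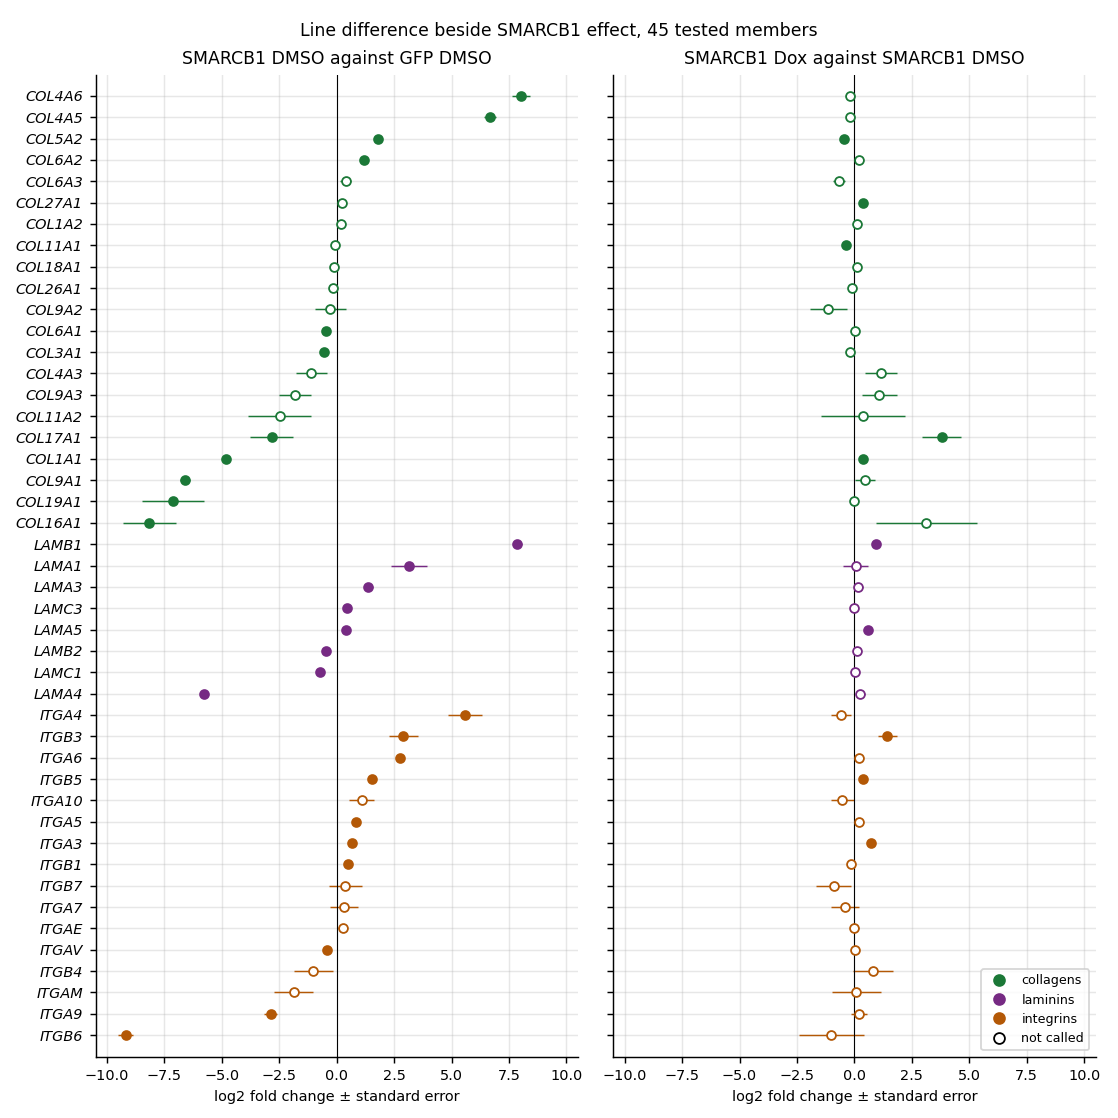
Log2 fold change ± standard error of 45 of the 46 tested genes between the lines without Dox (left) and for Dox in the SMARCB1 line (right), on the same axis; filled points were called by edgeR at an adjusted p under 0.05, colours are families. The SMARCB1 DMSO libraries enter both panels, once on each side of the difference. The line differences reach from -9.18 to 8.04, whereas COL17A1 and ITGB3 alone were called with a SMARCB1 effect over 2-fold.

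Fewer of these genes were called after re-expression of SMARCB1 than between the lines. Between SMARCB1 Dox and SMARCB1 DMSO, 10 of 46 were called (21.7%, beside 14.0% of all genes tested), 8 higher and 2 lower (background 8.33% and 5.69%). Of these, 2 changed by more than 2-fold (background 2.77%), COL17A1 and ITGB3, both below 3 CPM throughout. Collagens gave 3 higher and 2 lower of 21, laminins 2 higher of 9 and integrins 3 higher of 16. The median log2 change was 0.11, 0.13 and 0.06 in these families, beside -0.0038 over all genes. With library totals as the scale, 10 were higher and 1 lower. This scale moved the median of all genes to 0.09, with 1986 higher and 497 lower of all genes in place of 1327 and 907. Removing a GC trend with the replicate number as a block gave 7 higher and 4 lower members, in collagens 1 higher and 4 lower. Without SMARCB1 Dox replicate 1, 3 of the 46 were called (LAMB1, LAMA5 and ITGA3), and without SMARCB1 DMSO replicate 2 the number was 7.

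The 2 laminins that rose, LAMB1 and LAMA5, were also among the 5 that were higher in the SMARCB1 line without Dox. LAMB1 went from 84.8 and 72.5 CPM in SMARCB1 DMSO to 148 and 156 in SMARCB1 Dox, 1.94-fold (log2 0.95 ± 0.10, edgeR adjusted p 1.24e-06). In the GFP line LAMB1 held 16 and 8 counts in DMSO and 24 and 15 in Dox. LAMA5 (chromosome 20, positions 62307955 to 62367312, minus strand) had 103 and 128 CPM in GFP DMSO, 114 and 129 in GFP Dox, 151 and 157 in SMARCB1 DMSO and 221 and 241 in SMARCB1 Dox. The Dox libraries of the SMARCB1 line lay above the other 6 (log2 0.58 ± 0.10, edgeR adjusted p 2.01e-04). LAMB1 and LAMA5 kept their call in each of 17 alternatives, and so did ITGA3. LAMB2 (0.13 ± 0.11), the other beta chain, and LAMC1 (0.03 ± 0.08), the gamma chain of most laminins, were not called (edgeR adjusted p 0.513 and 0.867). LAMA4 was not called either (0.25 ± 0.20, adjusted p 0.485).

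Of the integrins, ITGA3, the alpha subunit of the podocyte receptor for laminins with LAMA5, rose most among those above 10 CPM. ITGA3 (chromosome 17, positions 50055968 to 50090481, plus strand) had 9.48 and 10.9 CPM in GFP DMSO, 8.38 and 11.1 in GFP Dox, 17.4 and 14.7 in SMARCB1 DMSO and 26.6 and 27.04 in SMARCB1 Dox. SMARCB1 Dox lay above all other libraries, and the rise was 1.67-fold (log2 0.74 ± 0.13, edgeR adjusted p 3.70e-04). ITGB5 rose 1.30-fold (log2 0.38 ± 0.12, edgeR adjusted p 0.0296, but 0.313 without SMARCB1 DMSO replicate 2 and 0.225 without SMARCB1 Dox replicate 1). ITGB3 went from 27 and 19 to 85 and 57 counts (log2 1.43 ± 0.41, edgeR adjusted p 0.0234, but 0.157 without SMARCB1 DMSO replicate 2 and 0.264 without SMARCB1 Dox replicate 1). DESeq2 gave ITGB3 an adjusted p of 0.0521. ITGB1 (-0.13 ± 0.09), ITGAV (0.03 ± 0.09) and ITGA6 (0.20 ± 0.09) were not called, at adjusted p of 0.384, 0.885 and 0.168 (edgeR), but ITGA6 was with library totals (0.29, adjusted p 0.0401) and with the block and a GC trend removed (0.25, adjusted p 0.0191). ITGA5 (0.21 ± 0.09, edgeR adjusted p 0.137) was called without SMARCB1 DMSO replicate 1 (0.36, adjusted p 0.0184), with library totals (0.31, adjusted p 0.0181) and with the block (0.21, adjusted p 0.031).

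Among collagens, the fibrillar chains moved in both directions. COL5A2 fell by 0.46 on the log2 scale (SE 0.12, edgeR adjusted p 0.0091), from 364 and 265 to 215 and 242 CPM, a call lost in edgeR without 1 library (adjusted p 0.257 without SMARCB1 DMSO replicate 1 and 0.126 without SMARCB1 Dox replicate 1) and with DESeq2 (adjusted p 0.115). COL11A1 fell by 0.37 (SE 0.11, edgeR adjusted p 0.0279), from 1593 and 1279.8 to 1012 and 1209 CPM, and was not called without 1 library (edgeR adjusted p 0.317 without SMARCB1 DMSO replicate 1 and 0.288 without SMARCB1 Dox replicate 1), with library totals (0.0798) or with the 4 libraries compared alone (0.0572). These were the 2 members that fell. COL1A1 rose from 20.995 and 16.7 to 24.6 and 24.1 CPM (log2 0.37 ± 0.12, edgeR adjusted p 0.0404), far below its level in the GFP line, and this call was lost without 1 library (adjusted p 0.344 without SMARCB1 DMSO replicate 2, 0.163 without SMARCB1 Dox replicate 1 and 0.093 without SMARCB1 Dox replicate 2), with a GC trend removed (0.161) and with the 4 libraries compared alone (0.0597). COL27A1 had 12.8 and 13.1 CPM in GFP DMSO, 11.7 and 13.2 in GFP Dox, 15.6 and 14.8 in SMARCB1 DMSO and 21.2 and 18.6 in SMARCB1 Dox. It rose by 0.39 ± 0.12 (log2, edgeR adjusted p 0.0269), a call lost without 1 library (adjusted p 0.0679 without SMARCB1 DMSO replicate 1, 0.126 without SMARCB1 DMSO replicate 2 and 0.229 without SMARCB1 Dox replicate 1) and with a GC trend removed (0.0779). COL3A1 (-0.19 ± 0.13) and COL1A2 (0.11 ± 0.12) were not called (edgeR adjusted p 0.43 and 0.619).

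COL17A1 (chromosome 10, positions 104031286 to 104085880, minus strand) had 18 and 8 counts in GFP DMSO, 11 and 5 in GFP Dox, 1 and 2 in SMARCB1 DMSO and 37 and 14 in SMARCB1 Dox. Its SMARCB1 DMSO libraries were the lowest of the 8, and SMARCB1 Dox held 51 counts against 3, a ratio of 15.0 with a 95% counting interval of 4.84 to 75.0 (fitted log2 3.80 ± 0.84, edgeR adjusted p 0.0035). Without SMARCB1 Dox replicate 1, which held 37 of the 51 counts, the call was lost (log2 2.96, adjusted p 0.101), and DESeq2 gave a log2 change of 3.91 with no adjusted p. COL6A3, the largest type VI chain, had 8.29 and 7.82 CPM in GFP DMSO, 8.28 and 6.53 in GFP Dox, 10.2 and 10.9 in SMARCB1 DMSO and 3.62 and 9.64 in SMARCB1 Dox, with SMARCB1 Dox replicate 1 below the other 7 libraries. Its change of -0.67 ± 0.25 was not called (edgeR adjusted p 0.0849), but it was without SMARCB1 Dox replicate 2 (-1.54, adjusted p 2.56e-05), with no expression filter (4.85e-04), with the block (0.0202) and with the block and a GC trend removed (0.0444). The type IV genes COL4A5 (-0.21 ± 0.14) and COL4A6 (-0.18 ± 0.18) were not called (edgeR adjusted p 0.396 and 0.583), although COL4A5 was without SMARCB1 DMSO replicate 2 (-0.45, adjusted p 0.0319). Untested COL4A1 and COL4A2 held 12 against 2 and 21 against 4 counts, ratios of 5.28 (95% counting interval 1.18 to 48.6) and 4.62 (1.56 to 18.5), and these intervals cover counting error only.

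**Figure D3:**
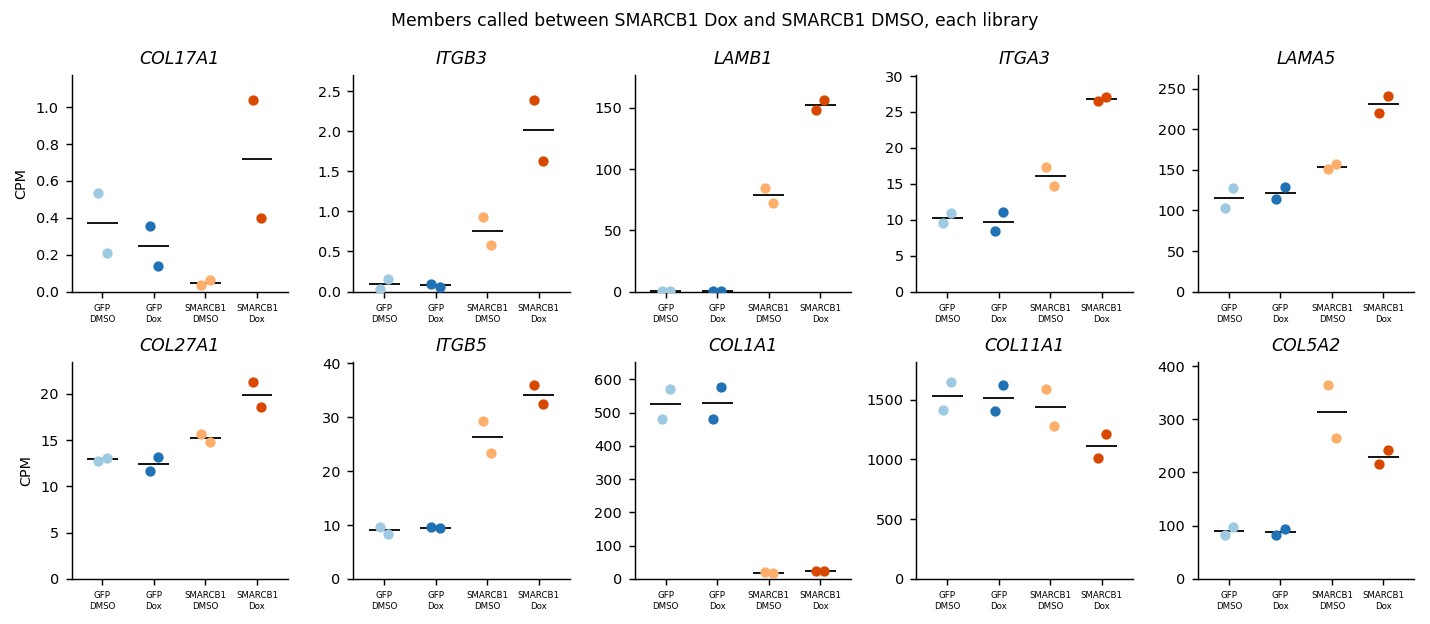
CPM of the 10 genes called between SMARCB1 Dox and SMARCB1 DMSO in all 4 groups, each panel on its own axis from 0; each point is 1 library and bars are group means. LAMB1, LAMA5 and ITGA3 are highest in SMARCB1 Dox, COL5A2 and COL11A1 fall with Dox in the SMARCB1 line, and COL1A1 stays at 16.7 to 24.6 CPM there beside 480 to 576 in the GFP line.

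Dox itself was controlled in the GFP line. Between GFP Dox and GFP DMSO, 0 of the 46 genes were called (background 0%) by edgeR or DESeq2, and 0 had an unadjusted p under 0.05 in edgeR, where 266 of all 15931 genes did. Log2 changes ranged from -1.23 to 1.00, both ends at genes below 2 CPM. For LAMA5 and ITGA3 the GFP values were 0.07 ± 0.10 and -0.06 ± 0.14.

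The difference between the Dox effects of the lines was then tested. It was called for 3 of 46 genes (6.52%, near the background of 4.71% of all genes), all more positive in the SMARCB1 line (background 3.07%, and 1.64% more negative), and COL17A1 alone differed by more than 2-fold (background 1.59%). ITGA3 differed by 0.81 ± 0.19 on the log2 scale (edgeR adjusted p 0.014), LAMA5 by 0.51 ± 0.14 (adjusted p 0.0289) and COL17A1 by 4.40 ± 1.11 (adjusted p 0.0223). The call of ITGA3 was lost without 1 control library (adjusted p 0.0878 without GFP DMSO replicate 2 and 0.107 without GFP Dox replicate 1), and that of LAMA5 in 4 cases (adjusted p 0.262 without GFP DMSO replicate 2, 0.186 without GFP Dox replicate 1, 0.0628 without SMARCB1 DMSO replicate 1 and 0.0951 without SMARCB1 Dox replicate 2). COL17A1 lost its call in 5 (adjusted p 0.174 without GFP DMSO replicate 1, 0.1 without GFP Dox replicate 2, 0.0791 without SMARCB1 DMSO replicate 1, 0.0528 without SMARCB1 DMSO replicate 2 and 0.183 without SMARCB1 Dox replicate 1). For LAMB1 the difference was 0.16 ± 0.45 (edgeR adjusted p 0.917), with a GFP change of 0.79 ± 0.41 at 8 to 24 counts a library, so a rise in the SMARCB1 line alone was not shown for LAMB1. The differences of COL5A2 (-0.43 ± 0.16) and COL11A1 (-0.35 ± 0.16) were not called (edgeR adjusted p 0.164 and 0.259), except without SMARCB1 DMSO replicate 2 (adjusted p 0.00593 and 0.0445) and with no expression filter (0.0154 and 0.0253). COL1A1 (0.37 ± 0.16), COL27A1 (0.45 ± 0.17), ITGB5 (0.29 ± 0.18) and ITGB3 (1.79 ± 1.04) were not called either, at adjusted p of 0.238, 0.157, 0.453 and 0.436 (edgeR).

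Line difference and SMARCB1 effect were set side by side in each family. The 2 comparisons share the SMARCB1 DMSO libraries, with opposite sign, so only their own values are set beside each other. In collagens, COL1A1 stood at -4.81 between the lines and 0.37 with SMARCB1, and COL5A2 at 1.81 and -0.46. In laminins, LAMB1 stood at 7.87 and 0.95, LAMA4 at -5.76 and 0.25, and LAMA5, with the larger SMARCB1 value, at 0.41 and 0.58. In integrins, ITGA6 stood at 2.76 and 0.20, ITGB5 at 1.55 and 0.38, and ITGA3 at 0.65 and 0.74. ITGB6, COL9A1, LAMA4, COL16A1 and COL19A1, which were low in SMARCB1 DMSO, were in SMARCB1 Dox still below every library of the GFP line.

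Summed over a family, the level changed less than its composition. Collagens summed to 3002 to 3555 CPM in the GFP line, 2555 and 3090 in SMARCB1 DMSO and 2221 and 2634 in SMARCB1 Dox. Laminins summed to 808 to 884 CPM in the GFP line, 625 and 699 in SMARCB1 DMSO and 809.6 and 844 in SMARCB1 Dox, where LAMB1 and LAMA5 gave most of the rise. Integrins summed to 1101 to 1176 CPM in the GFP line and 1108 to 1335 in the SMARCB1 line. These sums were not tested.

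The composition was followed as the share of each chain per kilobase among chains of one kind. Among laminin beta chains, LAMB1 made up 0.0805% to 0.335% in the GFP line, 32.4% and 31.3% in SMARCB1 DMSO and 46.4% and 44.2% in SMARCB1 Dox, with LAMB2 making up nearly all the rest. Among alpha chains, LAMA4 made up 44.6% to 47.4% in the GFP line and 0.831% to 1.29% in the SMARCB1 line, where LAMA5 took 90.4% to 94.7%. The GFP line thus held mainly RNA for laminins with LAMA4 or LAMA5 and LAMB2, and the SMARCB1 line for LAMA5 with LAMB1 or LAMB2. LAMC1 took 90.1% to 95.5% of the gamma chains in all libraries. Among the ITGAV partners ITGB3, ITGB5, ITGB6 and ITGB8, ITGB6 took 69.8% to 74.3% in the GFP line. In the SMARCB1 line ITGB5 took 93.96% to 97.4% of the same set. This set leaves out ITGB1, which had far more CPM than ITGB5 or ITGB6 in every library. These values are thus not shares of all beta subunits that can pair with ITGAV. Among laminin-binding alpha subunits, ITGA3 took 39.8% to 43.04% in the GFP line, 15.4% and 13.5% in SMARCB1 DMSO and 19.7% and 19.9% in SMARCB1 Dox, the remainder being almost wholly ITGA6. Shares of RNA do not give the proteins assembled, and were not tested.

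**Figure D4:**
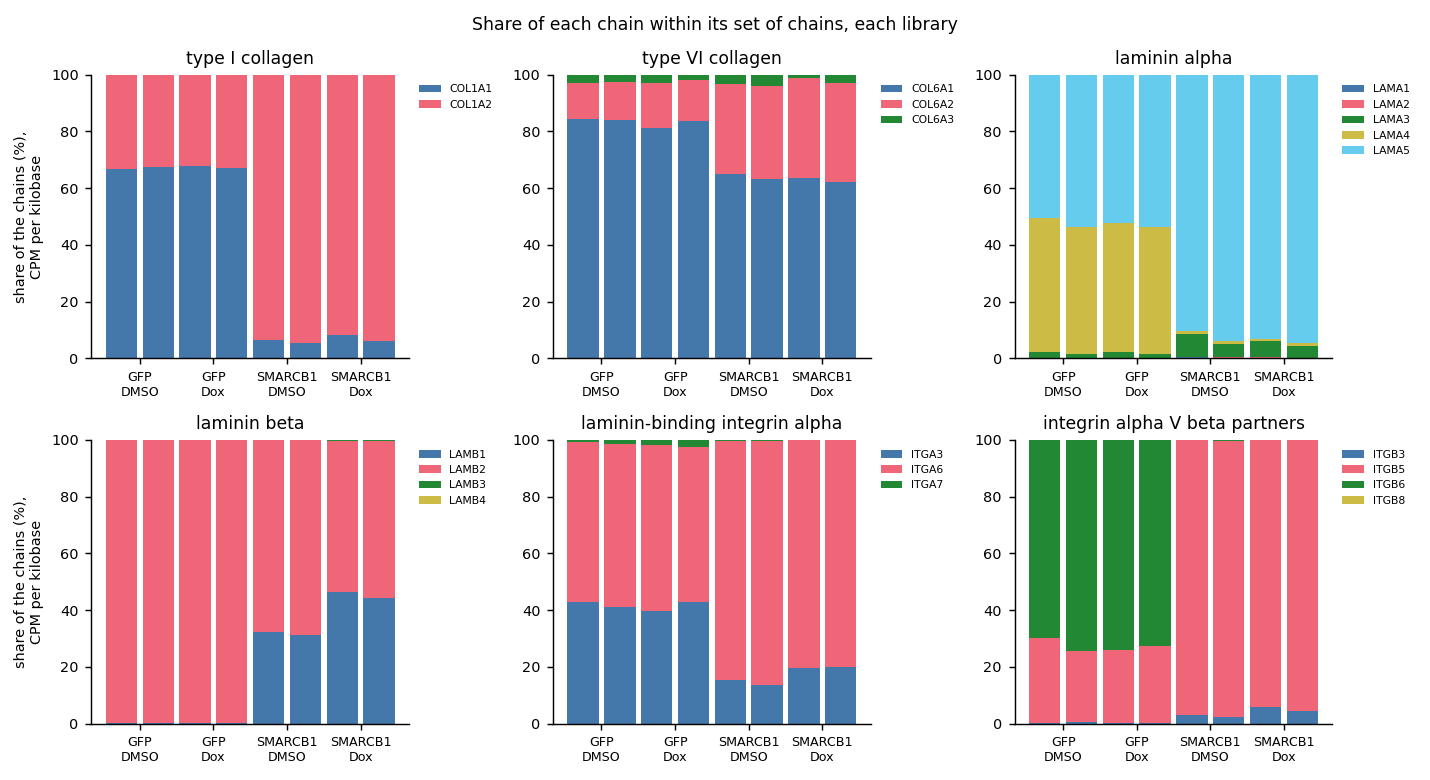
Share of each chain, in percent of the summed CPM per kilobase of its set, in each of the 8 libraries (2 bars per group) for 6 sets of chains. The set of beta partners of ITGAV holds ITGB3, ITGB5, ITGB6 and ITGB8 and leaves out ITGB1. The lines differ in every set, and Dox in the SMARCB1 line goes with a LAMB1 share of the beta chains of 44.2% and 46.4% in place of 31.3% and 32.4%.

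Genes that fold, link, bind or cut these proteins were counted from 7 lists of matrix and adhesion genes with 87 genes, of which 65 were tested. Between the lines without Dox 43 were called (66.2%, beside 32.0% of all genes tested). In the SMARCB1 line 32 were higher and 11 lower (background 16.3% and 15.7%). The largest differences were those of MMP1, a collagenase (3.86 ± 0.21), and SPARC, a collagen-binding protein of basement membranes (3.34 ± 0.15), and, lower, VTN, the integrin ligand vitronectin (-2.95 ± 0.32), and PCOLCE, which helps to trim procollagen (-2.03 ± 0.14, all log2, edgeR adjusted p 1.68e-12, 4.37e-14, 2.13e-07 and 6.46e-11). SPARC had 156 and 119 CPM in GFP DMSO, 160.1 and 119.8 in GFP Dox, 1588 and 1195 in SMARCB1 DMSO and 1368 and 1211 in SMARCB1 Dox. Of the 20 tested genes for collagen folding and processing, 13 were higher and 1 lower (70% called, beside 32.0% of all genes tested).

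With SMARCB1, 16 of the 65 were called (24.6%, beside 14.0% of all genes tested), 12 higher and 4 lower (background 8.33% and 5.69%). With library totals 15 were higher and 2 lower, and with the GC trend removed 11 and 12. FBN1, the fibrillin of microfibrils and an integrin ligand, had 34.9 and 42.3 CPM in GFP DMSO, 40.1 and 44.98 in GFP Dox, 29.6 and 23.9 in SMARCB1 DMSO and 56.8 and 60.2 in SMARCB1 Dox. It rose by 1.13 ± 0.11 on the log2 scale (edgeR adjusted p 3.72e-07). HSPG2, the basement membrane proteoglycan perlecan, rose by 0.88 ± 0.11 (edgeR adjusted p 1.02e-05), from 28.6 and 28.5 to 52.1 and 52.96 CPM. In the GFP line HSPG2 had 50.1 and 65.3 CPM in DMSO and 58.3 and 70.0 in Dox. ADAMTS3, a procollagen protease, fell by 0.78 and MMP16, a membrane-bound matrix protease, by 0.76 (edgeR adjusted p 1.24e-06 and 0.0088). Basement membrane partners gave 3 higher of 6 tested (background 8.33%). These were HSPG2, BCAM, a receptor for laminins with LAMA5, and the proteoglycan AGRN, the last 2 named after their values were seen. Without Dox, HSPG2 (-1.02) and BCAM (-1.60) were lower in the SMARCB1 line and AGRN (0.34) higher (edgeR adjusted p 2.00e-07, 1.81e-11 and 0.00125). The Dox effect differed between the lines for 10 of the 65 (15.4%, beside 4.71% of all genes tested), 8 more positive and 2 more negative (background 3.07% and 1.64%). FBN1 (0.99 ± 0.15, edgeR adjusted p 4.36e-04) and LIMS2, of the integrin adhesion complex (0.83 ± 0.19, 0.00994), stood at the upper end. MMP16 (-1.16 ± 0.27, 0.0119) and ADAMTS3 (-0.73 ± 0.12, 5.08e-04) stood at the lower. In the GFP line 0 of the 65 were called by edgeR or DESeq2, and 3 had an unadjusted p under 0.05 in edgeR. These counts stand beside the same backgrounds as above.

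RefSeq start-site windows of 300 bases (250 before and 50 after the start) were found for 59 of the 83 genes, 78 windows in all. The windows held a median of 16 CG pairs, beside 14 in 35116 windows of all genes. The median was 13 in the windows of tested members and 18 in those of members not tested. The motif TGANTCA of AP-1 factors, on either strand, was in 4 of the 78 (5.13%) and in 7.71% of all windows, GGAATG of TEAD factors in 8.97% and 14.0%, and TATAAA in 12.8% and 11.5%. The windows of COL4A5, LAMB1 and ITGB6 shown above held none of these letters, which says only that the letters are not in these windows.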

How the data were processed

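RNA was sequenced from 8 libraries, 2 in each of 4 groups. Per the labels and the study's methods, the authors aligned reads to hg38 with STAR and counted them over exons with HTSeq (intersection-strict, a GENCODE annotation whose release the methods name), and the deposited values are raw read counts per gene. The versions of STAR and HTSeq and the strand option of counting are not given in the sources used here, so reads of overlapping genes may be split or lost, and the library kit is described differently in the labels and the methods. The 5 entries that name no gene (26.96% to 29.29% of counts) were left out. Symbols, positions and exon lengths came from a later GENCODE release on the same build, in which 62625 of 69215 identifiers were found.

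Counts were filtered with filterByExpr (15931 genes left), scaled with TMM and fitted over all 8 libraries with the quasi-likelihood test of edgeR 4.0.16 (R 4.3.3, limma 3.58.1), with Benjamini-Hochberg adjustment over all genes tested and a threshold of 0.05. Fold changes are given as log2 with their standard errors (SE, n = 2 libraries per group). DESeq2 1.42.0, other scalings, filters and sample sets were alternatives. The script was tested on simulated counts. CPM per kilobase used the exon length of each gene in the annotation. Ratios of sparse genes are over summed counts with exact 95% intervals, and the floor is 3 counts over a group. The members and lists were chosen with earlier results of these data known. Any member could be named. Values in every library are given for up to 12 called members of largest change at a mean of at least 1 CPM for SMARCB1 and for the line difference, those called for the difference between the Dox effects, the 3 of highest CPM per kilobase in each family, ITGB1 and the tested chains that assemble with these, and of the lists the 2 largest called changes each way; neighbouring genes were chosen by position. Figures were drawn with matplotlib 3.10.9. No file, column or library was left out, and 1 tested laminin enters the counts but is not reported here.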

Additional observations from a re-analysis of the deposited data

Results flagged for a closer look

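The Dox effect of the SMARCB1 line differed from that of the GFP line, by a test of the difference itself, for 3 of the 46 genes tested (edgeR quasi-likelihood test, adjusted p under 0.05). This was 6.52%, near the 4.71% of all genes tested. Each of the 3 calls was lost in some of the fits without 1 library. ITGA3 differed by 0.81 on the log2 scale and LAMA5 by 0.51, and both stood higher in SMARCB1 Dox than in each of the other libraries. COL17A1 differed by 4.40, a fitted value that rests on 3 counts in SMARCB1 DMSO and 51 in SMARCB1 Dox, 37 of them in replicate 1.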

How the results depend on the processing

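Of 717 refits of the 43 member results called, under 17 alternative settings, 675 kept the call, 42 lost it and 0 turned direction. The call held in every refit for 28 results. This total pools all comparisons, the line difference among them. With SMARCB1, LAMB1, LAMA5 and ITGA3 alone kept their call in every refit. Each call for the difference between the Dox effects was lost in some refits. For SMARCB1 Dox against SMARCB1 DMSO, leaving out 1 library gave 1284 to 2088 genes called in all (2234 with all libraries), 3 to 10 members, 0 to 5 collagens, 1 to 4 integrins and 8 to 21 genes of the matrix and adhesion lists. The members fell to 3 without SMARCB1 Dox replicate 1, the collagens to 0 there, and the integrins to 1 without SMARCB1 DMSO replicate 2. DESeq2 and a fit to the 4 libraries compared gave 3 collagens each, and library totals gave 5 integrins. For the difference between the Dox effects, leaving out 1 library gave 390 to 805 genes called in all (750 with all libraries), 1 to 4 members, 0 to 2 collagens, 0 to 1 laminins, 0 to 1 integrins and 5 to 10 list genes. Without an expression filter it gave 5 members, of which 3 were collagens, and with a mean of at least 1 CPM 0 collagens, since COL17A1 was then not tested. In the GFP line, 1 gene of all was called without a filter. A block for the replicate number raised the calls for the difference to 1282 genes in all, and to 1244 with a GC trend also removed. The labels do not tie equal numbers to a shared day or culture and there are only 2 numbers, although same-numbered libraries deviated together (correlations of 0.122 to 0.393 over 9948 genes). The block alone ended no call of a member and added COL6A3 (-0.70) and ITGA5 (0.21) with SMARCB1 and COL1A2 (0.22) and COL9A3 (-1.84) between the lines, and with the GC trend removed COL1A1 and COL27A1 lost theirs with SMARCB1, where COL26A1 (-0.29), ITGA6 (0.25) and COL6A3 (-0.69) gained one, as COL27A1 did between the lines (0.33). When 1 library was left out, 3 values not called with all libraries turned sign. COL4A5 with SMARCB1 ranged from -0.45 (called, adjusted p 0.0319) without SMARCB1 DMSO replicate 2 to 0.087 without SMARCB1 DMSO replicate 1, LAMA3 from -0.19 to 0.64 (called, adjusted p 0.0337) without the same libraries, and the COL6A3 difference from -1.41 (called, adjusted p 0.0015) without SMARCB1 Dox replicate 2 to 0.0023 without SMARCB1 Dox replicate 1. Apart from the filter on COL17A1, the cause of these changes was not tested. Low counts limit what can be seen in many members, such as COL4A1, whose 12 against 2 counts allow ratios from 1.18 to 48.6.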
